A study of Mus musculus with 60 samples.

Results

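The aminoacyl-tRNA synthetases are the enzymes that load each transfer RNA with its amino acid. The 33 genes described here were chosen by their symbol alone, 1 capital letter followed by "ars" and, for the mitochondrial forms, a 2. They are 33 of 55011 genes in the count table, of which 44386 had a count in at least 1 library. The family was singled out with earlier results of these data known, so the counts of members below describe the family and are not an independent test of it. Of the 33 genes, 16 encode the cytosolic form of an enzyme and 17 the mitochondrial form, and each passed the filter on low counts in all 16 comparisons.

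The letter names the amino acid. Aars and Aars2 charge alanine, Cars and Cars2 cysteine, Dars aspartate, Hars and Hars2 histidine, Iars and Iars2 isoleucine, and Lars and Lars2 leucine. Nars and Nars2 charge asparagine, Rars and Rars2 arginine, Sars and Sars2 serine, Tars and Tars2 threonine, Vars and Vars2 valine, Wars and Wars2 tryptophan, and Yars and Yars2 tyrosine. Gars (glycine) and Kars (lysine) each encode both forms from 1 gene and are counted here with the cytosolic set, and Qars charges glutamine in the cytosol. Ears2 (glutamate), Fars2 (phenylalanine), Mars2 (methionine) and Pars2 (proline) are mitochondrial. Their cytosolic counterparts carry other symbols (Eprs, Farsa, Farsb and Mars1) and stand outside the rule.

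Cytosolic synthetases serve the ribosomes that translate nuclear messages. The mitochondrial enzymes, also encoded in the nucleus, serve the ribosomes inside mitochondria that make subunits of the respiratory chain. Brown fat is a tissue of many mitochondria that burns fuel to make heat. A shortage of amino acids or stress of the endoplasmic reticulum activates the transcription factor ATF4, which is known to raise many cytosolic synthetase genes, and interferon gamma is known to raise Wars.

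The study measured messenger RNA in whole brown adipose tissue (BAT, 38 libraries), whole subcutaneous adipose tissue (SAT, 14 libraries) and sorted regulatory T (Treg) cells (8 libraries) of male mice aged 8 weeks. Depletion of Treg cells used B6.Foxp3.DTR mice, in which the diphtheria toxin receptor (DTR) is expressed from Foxp3, the gene of the transcription factor that defines Treg cells. Mice with the receptor (DTR+) and controls without it (DTR-) were all given diphtheria toxin (DT). The groups labelled D4 held 4 libraries of each genotype from either depot, and those labelled D3 held 3. The labels do not say what D3 and D4 stand for, and the D3 titles add PBS where the D4 titles do not. In BAT, DTR+ and DTR- mice given DT and CL (3 libraries each; the labels do not expand CL) stood beside DTR- mice given DT and PBS (3). A group kept at 4 degrees (3) carries the same strain and DTR- genotype, was given PBS, and has no DT in its labels; its titles call it WT. C57BL/6J mice received the anti-CD25 antibody PC61 (3) or its isotype control (3). DTR+ mice given DT received an antibody to interferon gamma (anti-IFNg, 3) or an isotype antibody (3). Treg cells were sorted by CD45, the T cell receptor beta chain, CD4 and the Thy1.1 reporter from B6.Foxp3.Thy1.1 mice, from BAT (2), SAT (3) and spleen (3). The labels do not say whether the libraries of a group came from separate animals, so p-values measure the spread between these libraries, which may be technical.

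Library totals ran from 3007241 to 9673342 counts, and the family took 0.192% to 0.374% of them. Foxp3 stood at 352 to 440 CPM (read counts relative to each library's TMM-scaled total) in the sorted Treg cells and at 0 to 3.63 CPM in whole fat, a level too low to check the depletion. The sorted cells also held counts of 4 B cell markers. Their sum was 1017 to 1050 CPM in Treg cells of BAT, 757 to 1050 CPM in those of SAT and 1118 to 1175 CPM in those of spleen. Ucp1, the uncoupling protein that defines brown fat, ran from 2447 to 19542 CPM in BAT and from 0.785 to 517 CPM in SAT. The BAT library of the PBS group numbered 3 had a summed level of 6 T and NK cell markers of 131 CPM, against 6.55 and 15 CPM in the other PBS libraries. The D4 DTR- SAT library numbered 3 had 133 CPM, against 15.9 to 16.8 CPM in the other 3. Results that rest on either are also given without it. In whole tissue, a lower level can come from fewer cells of a type or from less RNA per cell, and these cannot be told apart here.

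Levels of different genes were compared per kilobase of exon. In DTR- BAT of D3 and D4, Gars led with 81.8 ± 12.0 CPM per kb and Lars2 followed with 69.5 ± 6.33 (SD, n = 7). Their spreads overlapped, and Hars, Fars2 and Sars came next at 28.3, 27.6 and 27.0 CPM per kb. In DTR- SAT of the same experiments, Lars2 led with 96.4 ± 14.2 CPM per kb, then Gars with 51.1 ± 8.30, Hars with 25.8 and Nars with 23.7 (n = 7). The order was another in sorted Treg cells, where Lars2 at 61.7 ± 11.0 CPM per kb and Vars at 51.5 ± 6.39 were followed by Gars at 45.0 ± 4.09 and Wars at 42.0 ± 7.32 (n = 8), neighbours that did not differ beyond their spread. The lowest per kilobase was Yars2 in BAT (1.66) and SAT (0.876), and Vars2 in Treg cells (1.90). Lars2 did not vary alone. Gm15564, a noncoding gene on another chromosome that the gene lists place among ribosomal RNA-like rows, moved with it. The ratio of Lars2 to Gm15564 CPM stayed between 7.82 and 9.36 over the D3 and D4 tissue libraries. Over the whole series it ranged from 7.82 to 20. What ties the 2 rows was not tested, nor whether all counts of the Lars2 row come from its messenger RNA. Sums over the mitochondrial set leave Lars2 out.

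With Lars2 left out, mitochondrial members made up 33.7% to 47.3% of the family's summed CPM in the 38 BAT libraries, 22.6% to 26.4% in the 14 SAT libraries and 20.9% to 24.4% in the 8 libraries of sorted Treg cells. No SAT library reached the lowest BAT library, but in DTR+ mice given CL this rests on Cars2. With Cars2 left out too, the shares ran from 18.3% to 40.6% in BAT and from 21.5% to 24.7% in SAT. The 3 libraries of DTR+ mice given CL, at 18.3% to 20.1%, then lay below every SAT library. Those of DTR- mice given CL were at 24.8% to 28.5%, the lowest just above the highest SAT library. Summed over members, mitochondrial CPM averaged 822 ± 234 in BAT and 368 ± 37.3 in SAT (SD over libraries). Cytosolic CPM averaged 1247 ± 238 in BAT and 1147 ± 93.5 in SAT. The BAT libraries include CL, cold and antibody groups that SAT lacks. In D4 DTR- mice alone, the mitochondrial sum was 780 ± 45.6 CPM in BAT and 357 ± 30.4 CPM in SAT. The cytosolic sum there was 1263 ± 113 CPM in BAT and 1078 ± 85.4 CPM in SAT. Sorted Treg cells had a cytosolic sum of 2077 ± 68.6 CPM and a mitochondrial sum of 603 ± 45.0 CPM.

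**Figure D1:**
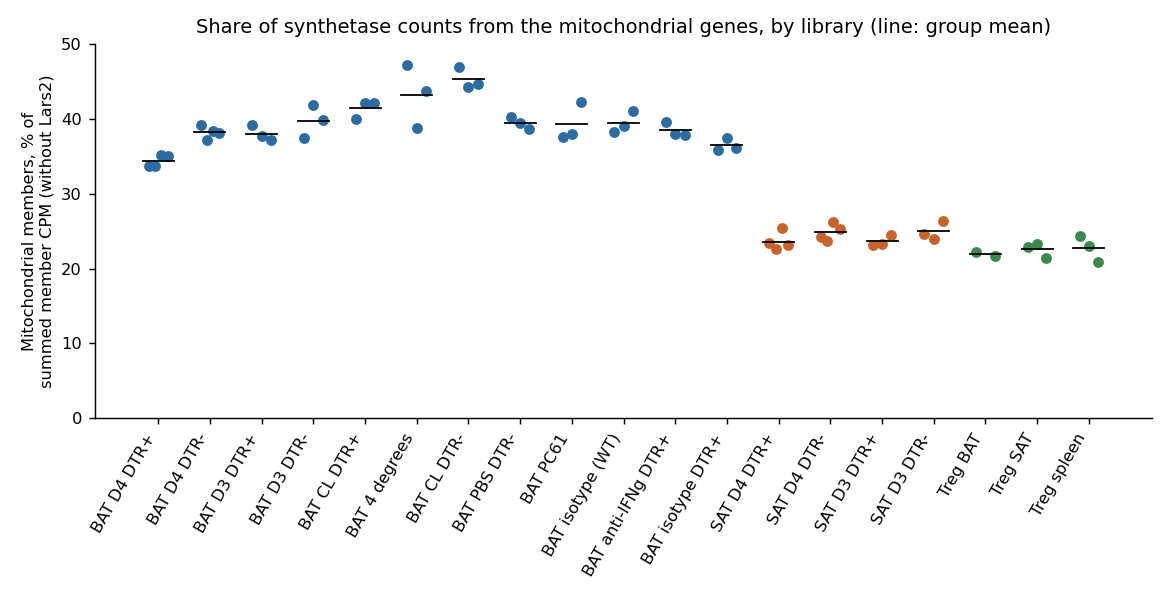
Percent of the family's summed CPM that came from the 16 mitochondrial members other than Lars2 (vertical axis), 1 point per library and a line at each group's mean, over the 19 groups. All 38 BAT libraries lie at 33.7% or more and all 14 SAT libraries at 26.4% or less. In DTR+ mice given CL this gap rests on Cars2, and in DTR- mice given CL it nearly closes without Cars2.

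The first comparison asked how the family differs between the 2 fat depots in mice that kept their Treg cells. In D4 DTR- mice, 15 of 33 members were higher in BAT than in SAT and 2 were lower by edgeR's quasi-likelihood test (Benjamini-Hochberg adjusted p under 0.05, the call used throughout), 12 of the 15 being mitochondrial. Over all 12310 genes tested, 25.9% were called higher and 25.0% lower. The median log2 fold change was 1.07 over the 17 mitochondrial members, 0.19 over the 16 cytosolic members and 0.01 over all genes.

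Aars2, the mitochondrial alanyl-tRNA synthetase (chromosome 17, 45506841 to 45520843, plus strand, mm10), had 78.7, 83.5, 66.1 and 78.8 CPM in BAT, against 16.5, 19.7, 25.4 and 16.7 CPM in SAT. The depots did not overlap, and the log2 fold change was 1.99 ± 0.16 (SE, edgeR adjusted p = 9.7e-08). Fars2, which charges phenylalanine, had 158, 155, 136 and 139 CPM in BAT, against 47.4, 48.0, 65.9 and 61.7 CPM in SAT, a log2 fold change of 1.42 ± 0.13 (edgeR adjusted p = 3.9e-07). Hars2 had 63.2, 60.8, 63.6 and 54.8 CPM in BAT, against 23.6, 26.1, 29.9 and 27.9 CPM in SAT (1.19 ± 0.13 on the log2 scale). These 3 genes had every BAT library above every SAT library. Other mitochondrial members called higher included Sars2 (1.28), Vars2 (1.22), Cars2 (1.13), Rars2 (1.08), Nars2 (1.07), Iars2 (1.07), Mars2 (1.00) and Tars2 (0.98), all with no overlap between the depots. Yars2 (1.24), Wars2 (0.68), Pars2 (0.59) and Ears2 (0.25) were above 0 without passing the test. Lars2 went the other way, with 687, 819, 736 and 864 CPM in BAT, against 1318, 992, 966 and 1194 CPM in SAT, a log2 fold change of -0.50 ± 0.12 (edgeR adjusted p = 0.0032). Gm15564, the row that moves with it, had a log2 fold change of -0.54.

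Among cytosolic members, Gars, Iars and Dars were called higher and Rars lower. Gars, the gene that encodes both glycyl-tRNA synthetases, had 252, 268, 233 and 205 CPM in BAT, against 126, 179, 155 and 131 CPM in SAT, with no overlap and a log2 fold change of 0.72 ± 0.12 (edgeR adjusted p = 0.0002). Iars, for isoleucine, was higher by 0.78 ± 0.22 on the log2 scale, although its lowest BAT library (25.2 CPM) lay below its highest SAT library (28.2 CPM). Dars, for aspartate, had a log2 fold change of 0.51 ± 0.12, with 83.7 to 117 CPM in BAT and 69 to 75.9 CPM in SAT. Rars, for arginine, had 26.1, 27.4, 23.0 and 29.2 CPM in BAT, against 38, 44.9, 43.3 and 41.9 CPM in SAT, a log2 fold change of -0.65 ± 0.14. Wars (0.27 ± 0.11, adjusted p = 0.051 by edgeR, range 0.033 to 0.26 over the alternatives) did not pass. The remaining 11, Aars, Cars, Hars, Kars, Lars, Nars, Qars, Sars, Tars, Vars and Yars, lay between -0.32 and 0.33 on the log2 scale and were not called.

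The D3 DTR- libraries, which share no sample with the D4 ones, gave 13 members higher in BAT than in SAT, of which 12 were mitochondrial, and 3 lower, beside 23.0% and 22.9% of all genes. Aars2 had 106, 87.3 and 84.9 CPM in BAT, against 24.6, 28.1 and 18.7 CPM in SAT, a log2 fold change of 1.99 ± 0.17 (edgeR adjusted p = 1.1e-06). Fars2 had 204, 148 and 171 CPM in BAT, against 58.2, 56.2 and 67.2 CPM in SAT (1.55 ± 0.14). Cars2 had 80.5, 119 and 81.6 CPM in BAT, against 24.1, 38.8 and 38.7 CPM in SAT (1.5 ± 0.21). The depots did not overlap in any of the 3. Sars2 (1.57), Hars2 (1.25), Tars2 (1.16), Vars2 (1.04), Nars2 (0.97), Iars2 (0.97), Mars2 (0.93) and Rars2 (0.58) were also among the members called, as they were at D4. Gars had 325, 263 and 240 CPM in BAT, against 151, 179 and 194 CPM in SAT (0.69 ± 0.14, edgeR adjusted p = 0.0012). Called lower were Rars (-0.72 ± 0.15), Lars2 (-0.37 ± 0.14) and Vars, the valine enzyme, with 30.3, 21.7 and 20.1 CPM in BAT and 55.3, 42.8 and 48.0 CPM in SAT (-1.0 ± 0.19). Lars2 was not called without any 1 of the BAT libraries or without the SAT library numbered 1 (edgeR adjusted p 0.06 to 0.21). Wars was not called (0.33 ± 0.14, edgeR adjusted p = 0.075). The median log2 fold change was 0.97 over the mitochondrial and 0.13 over the cytosolic members.

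**Figure D2:**
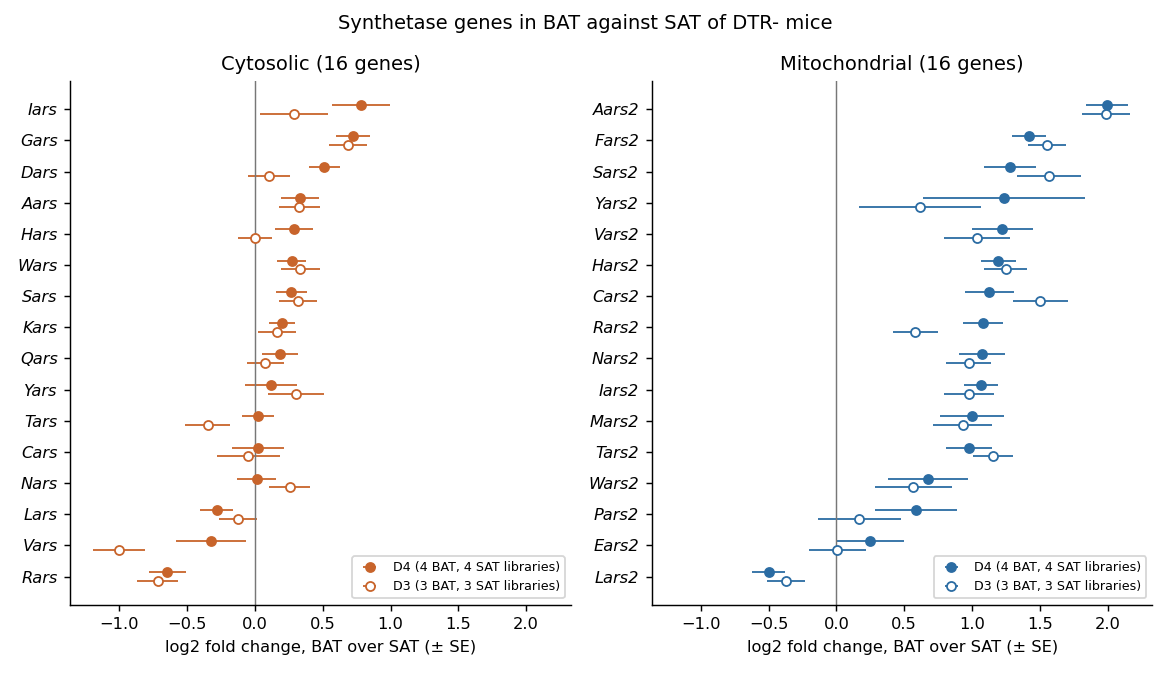
Log2 fold change of BAT over SAT in DTR- mice (horizontal axis, ± SE) for 32 members, cytosolic in the left panel and mitochondrial in the right, with filled points for D4 (4 libraries per depot) and open points for D3 (3 per depot). Aars2 stands highest in both, at 1.99, and Lars2 is the mitochondrial member below 0.

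Other genes of mitochondrial translation were mostly higher in BAT too. Of 19 mitochondrial translation factors, 14 were higher in BAT than in SAT at D4 and none was lower, with a median log2 fold change of 0.74; at D3 14 were higher and none lower, with a median of 1.15. Tufm, the mitochondrial elongation factor Tu, averaged 223 CPM in BAT and 70.5 CPM in SAT at D4 (1.69 ± 0.13 on the log2 scale), and Gfm1, the elongation factor G1, 262 CPM in BAT and 81.8 CPM in SAT (1.71). Tsfm (1.38) and Mto1 (1.48), a tRNA-modifying enzyme, were called as well. Of 8 cytosolic elongation and release factors none was higher and 2 were lower at D4. Among synthetases outside the symbol rule, Tarsl2, a threonyl-tRNA synthetase-like gene, averaged 13.0 CPM in BAT and 1.35 CPM in SAT (3.28), Mars1 was higher by 0.70 and Farsa by 0.60 on the log2 scale, and Eprs was called lower (-0.27).

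The depots also differ in their cells. All 4 brown adipocyte markers were higher in BAT at D4, while all 6 macrophage markers and all 3 fibroblast markers were lower; their part in the synthetase levels was not tested. Scaling decides how the cytosolic set reads, and at D3 it also moved mitochondrial calls. With library totals in place of TMM factors, the median of all genes lay at -0.47 at D4 and -0.49 at D3. The mitochondrial medians were 0.59 and 0.51, and the cytosolic medians were -0.29 and -0.34, below 0 in both. Gars was then not called (0.25 and 0.21) and 8 members were lower in each. At D3, 8 members were then higher, against 13 with TMM factors, and Vars2 was not called (0.57, edgeR adjusted p = 0.07). Without the D4 DTR- SAT library numbered 3, 18 members were higher and 2 lower, and Aars2 stood at 2.15.

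The next comparison asked what CL does in brown fat of DTR- mice given DT. Of the 16 cytosolic members 8 rose and none fell against PBS, and of the 17 mitochondrial members 2 rose and 5 fell, beside 16.3% of all 12048 genes called higher and 11.8% lower. The median log2 fold change was 0.57 over the cytosolic set, -0.26 over the mitochondrial set and -0.03 over all genes.

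Nars, which charges asparagine, had 249, 166 and 257 CPM with CL, against 85.9, 109 and 132 CPM with PBS, a log2 fold change of 1.13 ± 0.21 (edgeR adjusted p = 0.0015). Aars, the cytosolic alanine enzyme, had 125, 114 and 145 CPM with CL, against 72.1, 74.0 and 77.7 CPM with PBS (0.87 ± 0.18, edgeR adjusted p = 0.0024). Wars had 114, 116 and 94.5 CPM with CL, against 67.3, 55.6 and 74.1 CPM with PBS (0.81 ± 0.18, edgeR adjusted p = 0.0041). In none of the 3 did the groups overlap. Rars had 66.1, 54.5 and 56.5 CPM with CL, against 24.9, 30.3 and 42.1 CPM with PBS (0.95 ± 0.25). Cars had 40.7, 35.8 and 39.7 CPM with CL, against 20.5, 24.3 and 22.9 CPM with PBS (0.87 ± 0.22). Yars had 69.7, 70.1 and 81.6 CPM with CL, against 55.4, 35.7 and 45.0 CPM with PBS (0.79 ± 0.21). These groups were separate too. Gars (0.51 ± 0.17, edgeR adjusted p = 0.034) and Sars (0.49 ± 0.17, 0.045) passed narrowly; Gars missed the threshold without any 1 of the 6 CL and PBS DTR- libraries (edgeR adjusted p 0.056 to 0.11), and Yars without the PBS library numbered 2 (0.056).

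The ATF4 site is one feature that some of these cytosolic genes share. The composite site of ATF4 with a C/EBP partner was searched as TGATGNAA on both strands, from 250 bases before to 50 after the start, in RefSeq promoters of GRCm38.p6. The table held a promoter for 9 cytosolic and 14 mitochondrial members. The letters occurred in 5 of the 9 cytosolic promoters, in none of the 14 mitochondrial ones, and in 3.97% of all 32851 promoters. The 5 are printed 5′ to 3′ on the strand of their gene, with the match in capitals; the Yars match reads on the strand of its gene and the others on the opposite strand. They are Aars (chr8:111033592-111033891, plus strand), with 2 matches, Gars (chr6:55037751-55038050, plus), Iars (chr13:49681880-49682179, plus), Tars (chr15:11399609-11399908, minus) and Yars (chr4:129189653-129189952, plus).
Aars: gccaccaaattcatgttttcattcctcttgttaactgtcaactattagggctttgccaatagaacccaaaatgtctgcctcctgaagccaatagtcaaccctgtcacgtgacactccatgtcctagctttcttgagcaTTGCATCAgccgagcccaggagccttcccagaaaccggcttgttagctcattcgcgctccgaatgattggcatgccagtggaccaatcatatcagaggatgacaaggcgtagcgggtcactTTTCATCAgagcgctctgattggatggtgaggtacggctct
Gars: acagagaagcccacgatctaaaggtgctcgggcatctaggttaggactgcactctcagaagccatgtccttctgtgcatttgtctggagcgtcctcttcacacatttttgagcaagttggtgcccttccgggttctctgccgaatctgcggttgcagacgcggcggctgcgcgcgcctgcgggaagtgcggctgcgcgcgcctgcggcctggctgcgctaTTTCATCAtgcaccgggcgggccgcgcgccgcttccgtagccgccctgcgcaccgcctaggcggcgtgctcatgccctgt
Iars: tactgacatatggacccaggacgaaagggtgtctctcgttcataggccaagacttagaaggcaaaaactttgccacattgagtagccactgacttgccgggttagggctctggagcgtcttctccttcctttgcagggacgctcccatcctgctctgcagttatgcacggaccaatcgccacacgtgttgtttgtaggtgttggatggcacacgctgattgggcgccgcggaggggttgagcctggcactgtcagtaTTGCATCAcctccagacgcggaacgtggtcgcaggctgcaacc
Tars: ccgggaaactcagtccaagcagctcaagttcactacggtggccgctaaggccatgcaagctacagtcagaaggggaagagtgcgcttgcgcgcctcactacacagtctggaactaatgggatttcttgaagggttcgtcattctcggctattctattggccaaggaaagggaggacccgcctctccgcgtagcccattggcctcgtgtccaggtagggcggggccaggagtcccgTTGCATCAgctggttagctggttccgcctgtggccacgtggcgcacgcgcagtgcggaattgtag
Yars: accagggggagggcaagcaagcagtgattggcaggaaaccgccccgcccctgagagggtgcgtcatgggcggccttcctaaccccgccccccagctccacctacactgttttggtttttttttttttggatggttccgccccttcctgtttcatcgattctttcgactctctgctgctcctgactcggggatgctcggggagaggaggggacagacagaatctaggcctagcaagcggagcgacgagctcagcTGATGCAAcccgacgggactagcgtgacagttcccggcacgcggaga
A match is a description of the letters and not a bound site. Of the 5 genes, Aars, Gars and Yars were called higher with CL, while Iars (0.63 ± 0.23, edgeR adjusted p = 0.054) and Tars (0.42 ± 0.20, 0.13) were not. Among the cytosolic members searched without a match, Sars was called higher with CL, while Dars, Kars and Qars were not. The interferon-stimulated response element, searched the same way, was found in Qars and in 3.44% of all promoters. Nars, Cars, Rars and Wars had no promoter in the table.

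Of 14 synthetase-related genes known as ATF4 targets, a list that shares 11 members with the family, 8 rose with CL and none fell, with a median log2 fold change of 0.69. They were Aars, Cars, Gars, Nars, Sars, Wars and Yars, already counted above, and Eprs. The count is therefore not independent of the family's, and the part of ATF4 was not tested. Eprs, the joint glutamate and proline enzyme outside the symbol rule, averaged 293 CPM with CL and 119 CPM with PBS (1.39 ± 0.17, edgeR adjusted p = 6e-05). Among 28 tested genes of the amino acid and integrated stress response, 14 rose and 4 fell. Atf4 itself averaged 570 CPM with CL and 84.6 CPM with PBS (2.84 ± 0.21), Slc3a2, a subunit of amino acid transporters, was higher by 3.87 ± 0.19, and Sesn2, a leucine sensor, averaged 182 CPM with CL and 15.4 CPM with PBS (3.67 ± 0.35). Asns, the ATF4 target that makes asparagine, had a log2 fold change of 0.01. Of 8 cytosolic elongation and release factors 6 rose and none fell, led by Etf1, the release factor, with a mean of 296 CPM with CL and 71.4 CPM with PBS (2.14 ± 0.17).

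The largest change in the family was in Cars2, the mitochondrial cysteinyl-tRNA synthetase (chromosome 8, 11513977 to 11550783, minus strand, mm10). Cars2 had 876, 547 and 688 CPM with CL, against 50.2, 52.2 and 45.4 CPM with PBS. The groups were more than an order of magnitude apart, and the log2 fold change was 3.93 ± 0.20 (edgeR adjusted p = 3.4e-08). Its gene overlaps the end of Naxd on the opposite strand, which was not called (-0.19 ± 0.16, edgeR adjusted p = 0.41). Ing1, the next gene upstream on the other strand, had 73.3, 60.9 and 71.8 CPM with CL, against 12.5, 14.8 and 15.7 CPM with PBS (2.35 ± 0.22). The files do not say whether counting used strand, so reads in the overlap cannot be assigned. Yars2, for tyrosine, had 18.9, 57.3 and 34.1 CPM with CL, against 5.94, 5.58 and 7.46 CPM with PBS (2.62 ± 0.43, edgeR adjusted p = 0.00055), with a wide spread among the CL libraries.

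The 5 mitochondrial members that fell were Pars2, Nars2, Hars2, Rars2 and Tars2. Pars2, for proline, had 0.726, 1.07 and 1.49 CPM with CL, against 11.1, 13.3 and 9.46 CPM with PBS (-3.18 ± 0.53, edgeR adjusted p = 0.00069). This rests on few reads, 2, 5 and 13 counts with CL and 58, 55 and 71 with PBS. Tars2, for threonine, had 34.9, 35.4 and 37.8 CPM with CL, against 56.6, 69.6 and 69.8 CPM with PBS (-0.77 ± 0.20, edgeR adjusted p = 0.011). Nars2 (-0.87 ± 0.31), Hars2 (-0.83 ± 0.30) and Rars2 (-0.82 ± 0.28) passed at adjusted p 0.046, 0.049 and 0.042. Without the PBS library numbered 3, which had the high T cell markers, these 3 were not called (edgeR adjusted p 0.16, 0.13 and 0.18), while 8 members were still higher and Pars2 (-3.28) and Tars2 (-0.71) were still lower. Leaving out any 1 of the 6 libraries ended the Nars2 call, and all but the CL library numbered 3 ended those of Hars2 and Rars2 (edgeR adjusted p 0.051 to 0.18). The count of members lower was 2 as well without the CL DTR- library numbered 1 or 2 or the PBS library numbered 1 or 2. Fars2, Aars2, Sars2, Ears2, Iars2, Mars2, Wars2 and Vars2 were not called, with log2 fold changes from -0.86 in Wars2 to 1.04 in Vars2. Lars2 had 599, 859 and 473 CPM with CL, against 517, 430 and 210 CPM with PBS, which overlap (0.83 ± 0.37, edgeR adjusted p = 0.12, from 0.009 to 0.33 over the alternatives, passing with DESeq2 at 0.047, with no filter and with the replicate block).

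Mitochondrial translation factors were mixed, with 2 of 19 higher and 4 lower with CL. Mtif2, an initiation factor, averaged 21.8 CPM with CL and 52.8 CPM with PBS (-1.18), and Mtfmt, which formylates the initiator tRNA, fell by 1.79 on the log2 scale. Mtrf1l, a release factor, was higher by 2.14 and Pus1, a tRNA pseudouridine synthase, by 1.07. The share of the family's CPM from mitochondrial members without Lars2 was 44.3% to 46.9% with CL and 38.6% to 40.3% with PBS, but 24.8% to 28.5% with CL and 37.2% to 38.6% with PBS once Cars2 was left out too. Cell markers moved in the same contrast: 4 of 6 T and NK cell markers and 3 of 6 macrophage markers were lower (the macrophage sum was 133 to 154 CPM with CL and 245 to 628 CPM with PBS), while 2 of 4 brown adipocyte markers and 3 of 3 endothelial markers were higher. Their part in these changes was not tested.

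The question of depletion under CL was then asked in BAT. Against DTR- mice, DTR+ mice given DT and CL had no member higher and 2 lower, beside 4.51% of all genes higher and 3.21% lower. Iars2, the mitochondrial isoleucine enzyme, had 97.6, 67.8 and 64.1 CPM in DTR+ mice, against 130, 157 and 182 CPM in DTR- mice, with no overlap (-1.04 ± 0.20, edgeR adjusted p = 0.0079). Yars2 had 10.8, 18.5 and 8.43 CPM in DTR+ mice, against 18.9, 57.3 and 34.1 CPM in DTR- mice (-1.57 ± 0.40, edgeR adjusted p = 0.032). Cars2 averaged 858 CPM in DTR+ mice and 704 CPM in DTR- mice and was not called. Wars had 156, 140 and 157 CPM in DTR+ mice, against 114, 116 and 94.5 CPM in DTR- mice, values that do not overlap but do not pass (0.47 ± 0.17, edgeR adjusted p = 0.11). Gars (-0.45 ± 0.17) and Lars2 (-0.94 ± 0.37) did not pass either (edgeR adjusted p 0.11 and 0.15); for Lars2 the adjusted p ran from 0.0017 to 0.35 over the alternatives and passed with DESeq2 (0.028), with no filter, with the replicate block and without the DTR+ library numbered 2. All 6 macrophage markers were higher in DTR+ mice (a sum of 817 to 956 CPM in DTR+ and 133 to 154 CPM in DTR-), as were 5 of 12 genes of the interferon gamma response; their part was not tested. Without the DTR+ library numbered 1 or 3 or the DTR- library numbered 2 or 3, Yars2 was not called (edgeR adjusted p 0.057 to 0.14) and 1 member was lower; the count was 4 without the DTR+ library numbered 2, and DESeq2 gave 5.

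Cold was set against the same PBS libraries, which are therefore shared with the CL comparison. At 4 degrees 2 members were called higher and none lower, beside 4.86% of all genes higher and 3.8% lower. Cars2 had 302, 84.5 and 333 CPM at 4 degrees, against 50.2, 52.2 and 45.4 CPM with PBS; every cold library was above every PBS library, 1 of them by far less (2.26 ± 0.50, edgeR adjusted p = 0.045, range 0.089 to 0.19 over the 5 libraries whose absence ended the call). Ing1 was not called (0.42, edgeR adjusted p = 0.43). Lars2 had 1050, 922 and 1004 CPM at 4 degrees, against 517, 430 and 210 CPM with PBS (1.33 ± 0.29, edgeR adjusted p = 0.022), while Gm15564 had 81.9, 65.5 and 64.1 CPM at 4 degrees and 50.2, 37.4 and 17.2 CPM with PBS. The median log2 fold change was -0.08 over the cytosolic and 0.04 over the mitochondrial members. Wars (0.59 ± 0.20, edgeR adjusted p = 0.095) and Gars (0.15, 0.62) were not called. The cold libraries carry no DT in their labels and the PBS libraries do, so cold and toxin cannot be told apart. Lars2 was not called without any 1 of the cold libraries (0.057 to 0.085). No member higher was left without the cold library numbered 1 or 3, and 1 was left without the cold library numbered 2 or any 1 of the PBS libraries. With the D3 DTR- BAT libraries as controls, 1 member was higher and 7 were lower, with Cars2 at 1.30 (edgeR adjusted p = 0.18), Lars2 at 0.33 (0.061), neither of them called, and Gars at -0.24, against 0.15 with the PBS controls. Without the PBS library numbered 3, Lars2 stood at 1.03 (edgeR adjusted p = 0.0019) and was the member called, while Cars2 at 2.19 was not (0.19). Cell markers moved in the same contrast: 2 of 3 endothelial markers were higher (a sum of 379 to 485 CPM at 4 degrees and 133 to 215 CPM with PBS), 2 of 4 brown adipocyte markers were higher and 1 lower (26358 to 27967 CPM at 4 degrees and 13911 to 17432 CPM with PBS), 2 of 4 adipocyte markers were lower, and 1 of 6 macrophage markers was lower (185 to 232 CPM at 4 degrees and 245 to 628 CPM with PBS). Their part in these values was not tested.

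Cold was also set directly against CL in BAT. The CL mice were given DT and the cold libraries carry none in their labels, so toxin cannot be told apart here either. The brown adipocyte marker sum was 26358 to 27967 CPM at 4 degrees and 20554.5 to 25143 CPM with CL. The macrophage sum was 185 to 232 CPM at 4 degrees and 133 to 154 CPM with CL. Fibroblast markers summed to 327 to 542 CPM at 4 degrees and 595 to 628 CPM with CL. The part of these cells was not tested. At 4 degrees none of the cytosolic members was higher than with CL and 6 were lower, while 4 mitochondrial members were higher and 2 lower, beside 14.9% of all genes higher and 17.3% lower. These values share the CL libraries with the comparison of CL and PBS and are no independent support for it. Nars had 99.5, 90.8 and 91.2 CPM at 4 degrees, against 249, 166 and 257 CPM with CL (-1.34 ± 0.18, edgeR adjusted p = 0.00017). Cars had 15, 19.4 and 15.3 CPM at 4 degrees, against 40.7, 35.8 and 39.7 CPM with CL (-1.31 ± 0.25). Iars had 35.7, 22.4 and 34.3 CPM at 4 degrees, against 73.0, 63.1 and 62.4 CPM with CL (-1.19 ± 0.23). No cold library reached a CL library in any of them. Aars (-0.97 ± 0.16), Sars (-0.75 ± 0.19) and Rars (-0.65 ± 0.20) were the other cytosolic members lower. Tars2 had 75.8, 77.3 and 59.0 CPM at 4 degrees, against 34.9, 35.4 and 37.8 CPM with CL (0.88 ± 0.20, edgeR adjusted p = 0.0049), and Pars2 had 7.77, 10.3 and 15 CPM at 4 degrees, against 0.726, 1.07 and 1.49 CPM with CL (3.14 ± 0.54). Rars2 (0.92 ± 0.28) and Nars2 (0.82 ± 0.25) were also higher, and Iars2 (-0.69 ± 0.17) and Yars2 (-1.58 ± 0.40) lower. Gars (-0.33), Wars (-0.19), Cars2 (-1.64) and Lars2 (0.54) were not called, though for Lars2 the adjusted p ran from 0.00071 to 0.18 over the alternatives and passed with DESeq2 (0.033), with no filter, with library totals, with the replicate block and without the CL library numbered 2. The count of members higher was 2 without the cold library numbered 1 or 2, either of which ended the Rars2, Nars2 and Rars calls. Those of Rars2 and Rars were also lost without the CL library numbered 1, that of Nars2 without the CL library numbered 2 or the cold library numbered 3, that of Rars without the cold library numbered 3 and that of Sars without the cold library numbered 1 (edgeR adjusted p 0.053 to 0.12). Among neighbours in the pathway, Atf4 averaged 105 CPM at 4 degrees and 570 CPM with CL (-2.53), Eprs 123 CPM at 4 degrees and 293 CPM with CL (-1.33), and of 28 stress response genes 3 were higher and 12 lower. Of 19 mitochondrial translation factors 7 were higher and 2 lower, among them Tsfm (1.05) and Mtif2 (1.57).

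**Figure D3:**
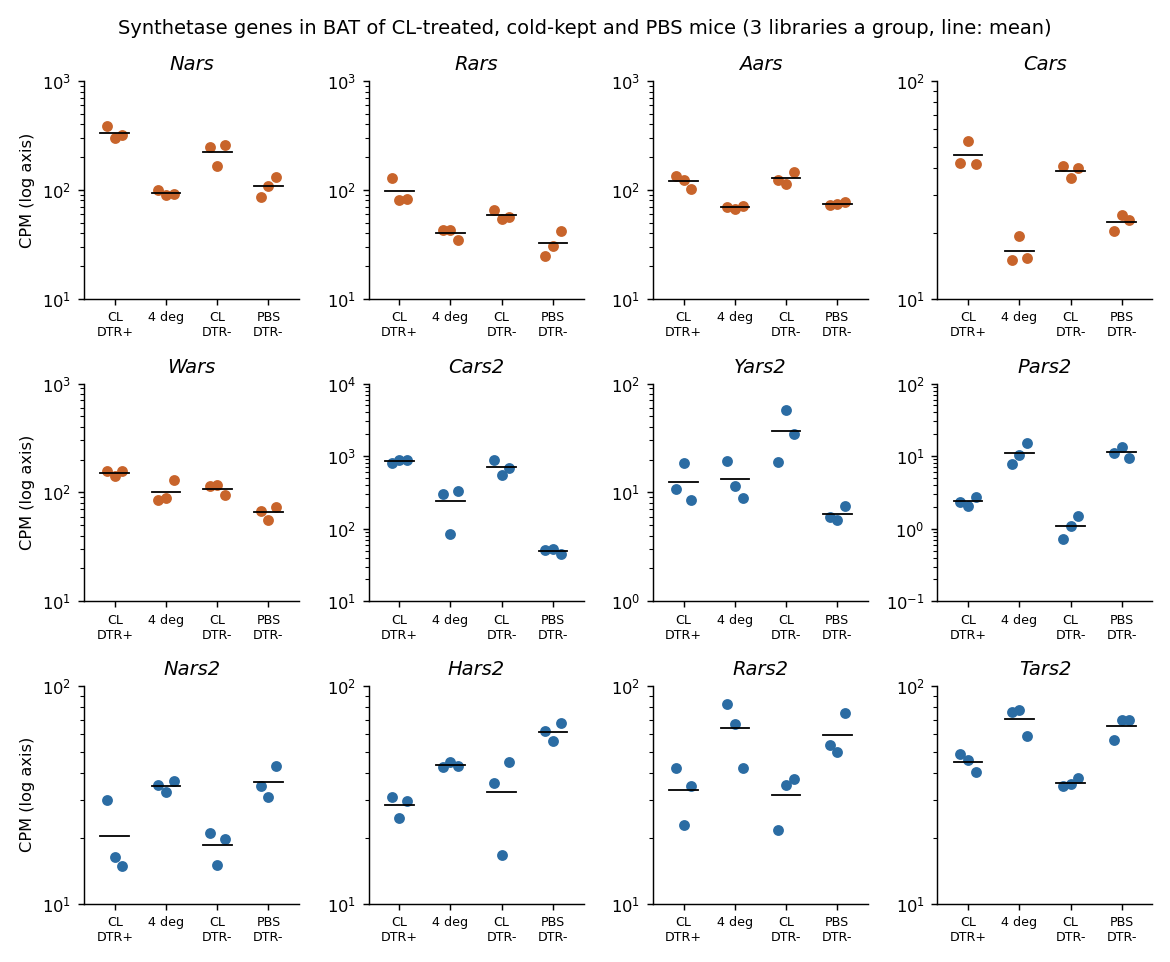
CPM on a log axis of 12 members in BAT of mice given CL (DTR+), kept at 4 degrees, given CL (DTR-) and given PBS (DTR-), 3 libraries each as points with a line at the mean. Cars2 lies at 547 to 876 CPM with CL in DTR- mice and at 45.4 to 52.2 CPM with PBS, while Tars2 lies at 34.9 to 37.8 CPM with CL and 56.6 to 69.8 CPM with PBS.

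Depletion of Treg cells without CL was asked first in BAT at D4. Most of the family sat slightly lower: 26 of 33 members had a log2 fold change below 0 in DTR+ mice, 6 of them were called lower and 1 higher, beside 7.36% of all 11695 genes lower and 8.73% higher. The median was -0.31 over the mitochondrial set, -0.11 over the cytosolic set and 0.02 over all genes.

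Wars, the 1 member called higher, had 78.3, 115, 112 and 104 CPM in DTR+ mice, against 80.0, 83.7, 79.8 and 69.4 CPM in DTR- mice (0.44 ± 0.13, edgeR adjusted p = 0.023). One DTR+ library lay within the DTR- range and the other 3 above it. Wars was no longer called without any 1 of the 4 DTR- libraries or without the DTR+ library numbered 2, 3 or 4 (edgeR adjusted p 0.052 to 0.097). In the same libraries 10 of 11 interferon gamma response genes were higher, with a median log2 fold change of 2.45.

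Gars had 162, 199, 172 and 175 CPM in DTR+ mice, against 252, 268, 233 and 205 CPM in DTR- mice, with no overlap (-0.38 ± 0.10, edgeR adjusted p = 0.017). Fars2 had 106, 113, 115 and 114 CPM in DTR+ mice, against 158, 155, 136 and 139 CPM in DTR- mice (-0.34 ± 0.09, edgeR adjusted p = 0.021). Cars2 had 35.5, 35.8, 34.8 and 41.0 CPM in DTR+ mice, against 43.5, 65.6, 56.1 and 58.2 CPM in DTR- mice (-0.55 ± 0.14, edgeR adjusted p = 0.014). All 3 had every DTR+ library below every DTR- library. Sars2 had 16.6, 24.5, 25.5 and 26.6 CPM in DTR+ mice, against 48.1, 43.2, 33.7 and 27.7 CPM in DTR- mice (-0.66 ± 0.19). Rars2 had 36.3, 29.4, 43.8 and 32.1 CPM in DTR+ mice, against 51.0, 54.7, 54.6 and 43.2 CPM in DTR- mice, which overlap slightly (-0.47 ± 0.15). Lars2 did not pass (0.12, edgeR adjusted p = 0.46), except with library totals (0.37, adjusted p = 0.0095; 0.0095 to 0.91 over the alternatives). The mitochondrial share of family CPM without Lars2 was 33.7% to 35.2% in DTR+ mice and 37.2% to 39.2% in DTR- mice.

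These decreases depend on the scaling. With library totals in place of TMM factors the median of all genes lay at 0.27, the log2 fold changes were -0.41 (Sars2), -0.30 (Cars2), -0.22 (Rars2), -0.13 (Gars) and -0.09 (Fars2), none was called lower and 3 members were called higher. The count of members lower was 3 without the DTR+ library numbered 1, which ended the Fars2, Sars2 and Rars2 calls. Sars2 was also not called without the DTR- library numbered 1 or 2 or the DTR+ library numbered 2, Rars2 without the DTR- library numbered 1, 2 or 3 or the DTR+ library numbered 2 or 4, and Gars without the DTR+ library numbered 4 (edgeR adjusted p 0.05 to 0.11). The cell makeup moved in the same libraries: 3 of 4 brown adipocyte markers were lower (a sum of 7134 to 8385 CPM in DTR+ and 11844 to 14145 CPM in DTR-), 4 of 6 macrophage markers were higher (502 to 1095 CPM in DTR+ and 130 to 330 CPM in DTR-) and both T and NK cell markers tested were higher. The DTR+ library numbered 1 had a summed level of 4 skeletal muscle markers of 4798 CPM. The other DTR+ libraries had 15.1 to 318 CPM, and the DTR- libraries had 10.8 to 2030 CPM. The part of all these markers in the synthetase values was not tested. Of 19 mitochondrial translation factors 5 were lower and 1 higher. Gfm1 averaged 155 CPM in DTR+ mice and 262 CPM in DTR- mice (-0.71 ± 0.10), and Tsfm (-0.52) and Qrsl1, which helps make glutaminyl-tRNA in mitochondria (-0.53), were lower as well. Mars1, the cytosolic methionine enzyme, averaged 75.7 CPM in DTR+ mice and 114 CPM in DTR- mice (-0.54). Atf4 was higher (0.80 ± 0.11), with a mean of 127 CPM in DTR+ mice and 75.9 CPM in DTR- mice.

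At D3 the same comparison in BAT gave 1 member lower and none higher, beside 1.29% of all genes lower and 2.24% higher. The edgeR unadjusted p was under 0.05 for 15 members and for 2086 of all 11666 genes. Cars2 had 60, 49.9 and 49.9 CPM in DTR+ mice, against 80.5, 119 and 81.6 CPM in DTR- mice (-0.79 ± 0.16, edgeR adjusted p = 0.014). The call was lost without the DTR+ library numbered 2 or 3 or the DTR- library numbered 2 (edgeR adjusted p 0.057 to 0.078), and under library totals, which put the median of all genes at 0.22 and called 2 members higher and none lower; DESeq2 called 2 lower. Gars had 203, 191 and 208 CPM in DTR+ mice, against 325, 263 and 240 CPM in DTR- mice, separate but not called (-0.43 ± 0.12, edgeR adjusted p = 0.071). Wars had 83.8, 85.5 and 92.2 CPM in DTR+ mice, against 116, 83.8 and 86.2 CPM in DTR- mice (-0.10 ± 0.14, edgeR adjusted p = 0.76). Of the interferon gamma list 9 of 11 were higher. The brown adipocyte marker sum was 9650 to 12449 CPM in DTR+ mice and 15152 to 19528 CPM in DTR- mice, and the macrophage sum was 308 to 358 CPM in DTR+ mice and 137 to 232 CPM in DTR- mice, with no single marker of either list called; their part was not tested. The difference between D4 and D3 was tested directly, and no member was called, as for 0.0% of all genes. The edgeR unadjusted p was under 0.05 for 732 of all 12757 genes and for 2 members. These were Wars (0.55 ± 0.20, edgeR adjusted p = 0.66) and Pars2 (-1.01 ± 0.44, 0.79).

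In SAT no member was called in DTR+ against DTR- mice at D4, beside 0.314% of all genes, though DESeq2 called 1. An edgeR unadjusted p under 0.05 was held by 3 members and by 944 of all 12728 genes. Wars had 95.5, 104, 87.1 and 84.9 CPM in DTR+ mice, against 61.7, 70.0, 72.4 and 60.1 CPM in DTR- mice. The genotypes did not overlap, yet the log2 fold change of 0.50 ± 0.11 had an edgeR adjusted p of 0.12 (0.039 to 0.42 over the alternatives), and 7 of 11 interferon gamma response genes were higher. Lars2 had 1646, 1421, 1497 and 1286 CPM in DTR+ mice, against 1318, 992, 966 and 1194 CPM in DTR- mice (0.40 ± 0.13, edgeR adjusted p = 0.46, from 0.04 with no filter to 0.79 over the alternatives), beside 0.53 for Gm15564. Gars was not called. Tested directly, the effect of depletion at D4 in BAT minus that in SAT passed for no member, beside 4.11% of all genes; the smallest p-values were those of Iars2 (-0.50 ± 0.17, edgeR adjusted p = 0.099) and Gars (-0.43 ± 0.16, 0.15), and Wars differed by -0.09 ± 0.17. Without the DTR- SAT library numbered 3, no member was called in either D4 comparison, Wars in SAT stood at 0.56 (edgeR adjusted p = 0.084), and the difference between depots was -0.10 for Wars and -0.20 for Lars2, which stood at -0.31 with it. At D3 in SAT no member and 0.0% of all genes were called, with 1 member and 629 of all 12596 genes at an edgeR unadjusted p under 0.05. Vars2 (-0.75 ± 0.29), Nars2 (-0.40) and Wars (0.29 ± 0.14) were nearest, at edgeR adjusted p of 0.95 to 0.98.

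**Figure D4:**
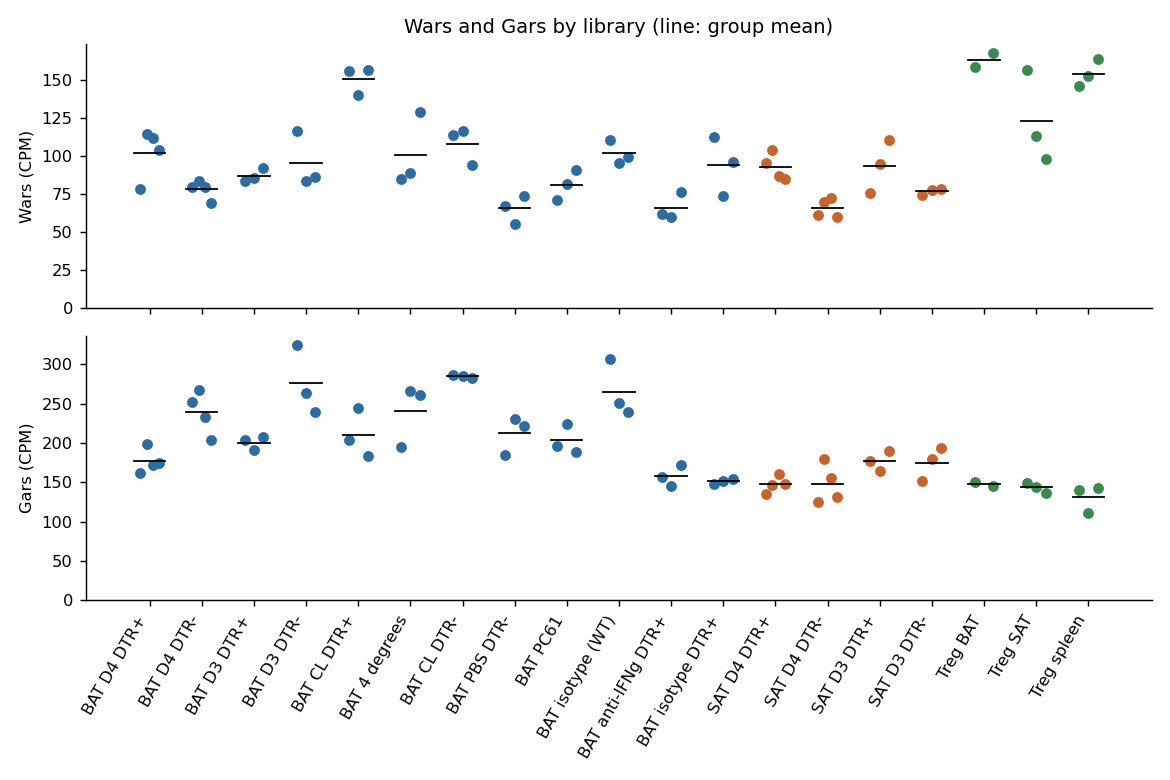
CPM of Wars and Gars (vertical axes) in each library of the 19 groups, with a line at each group's mean. Gars lies at 162 to 199 CPM in D4 DTR+ BAT and 205 to 268 CPM in D4 DTR- BAT, and Wars at 84.9 to 104 CPM in D4 DTR+ SAT and 60.1 to 72.4 CPM in D4 DTR- SAT.

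Antibodies were compared in BAT of other mice. PC61 against its isotype called no member, beside 0.651% of all genes. The edgeR unadjusted p was under 0.05 for 4 members and for 1247 of all 11513 genes. Gars had 197, 224 and 189 CPM with PC61, against 306, 250 and 239 CPM with isotype (-0.35 ± 0.13, edgeR adjusted p = 0.32), and Aars2 had 69.1, 70.0 and 81.7 CPM with PC61, against 99.2, 89.4 and 97.2 CPM with isotype (-0.33 ± 0.13, 0.33). The groups were separate for both genes, and neither passed. Wars had 71.3, 81.7 and 91.2 CPM with PC61, against 111, 95.8 and 99.7 CPM with isotype (-0.29 ± 0.13), and Lars2 differed by 0.10. The brown adipocyte marker sum was 9230 to 10988 CPM with PC61 and 12329.5 to 20552.5 CPM with isotype. Fibroblast markers summed to 333 to 356 CPM with PC61 and 235 to 267 CPM with isotype, and skeletal muscle markers reached 5853 CPM in a PC61 library. The macrophage sums overlapped. The part of these markers was not tested.

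Blocking interferon gamma in DTR+ mice also called no member, beside 0.541% of all genes. The edgeR unadjusted p was under 0.05 for 3 members and for 982 of all 12017 genes. Wars had 62.2, 59.9 and 76.2 CPM with anti-IFNg, against 113, 74.0 and 96.5 CPM with isotype, which overlap (-0.55 ± 0.16, edgeR adjusted p = 0.24, 0.047 to 0.70 over the alternatives). In the same libraries 9 of 11 interferon gamma response genes fell, among them Gbp2 with a mean of 48.9 CPM with anti-IFNg and 165 CPM with isotype (-1.79). Aars2 had 61.5, 53.0 and 55.9 CPM with anti-IFNg, against 46.1, 32.5 and 42.3 CPM with isotype (0.46 ± 0.16, edgeR adjusted p = 0.43). Gars (0.03) and Lars2 (-0.12) were close to 0.

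In sorted Treg cells, Vars averaged 256 to 302 CPM over the 3 sources, its group means in whole fat being 19 to 49 CPM, a comparison of separately scaled tables that is given as a description. Fat Treg cells against spleen Treg cells called no member, beside 12.6% of all genes. An edgeR unadjusted p under 0.05 was held by 5 members, all mitochondrial. It was also held by 3713 of all 13847 genes, a larger share than in the family. DESeq2 called 1 higher and 1 lower. Lars2 had 660 and 821 CPM in BAT and 820, 714 and 736 CPM in SAT Treg cells, against 693, 561 and 465 CPM in spleen Treg cells (0.39 ± 0.12, edgeR adjusted p = 0.059, 0.0086 to 0.24 over the alternatives). Tars2 had 112 and 95.3 CPM in BAT and 95.8, 80.8 and 88.6 CPM in SAT Treg cells, against 156, 121 and 109 CPM in spleen Treg cells (-0.43 ± 0.14, edgeR adjusted p = 0.066, 0.026 to 0.31 over the alternatives). Each of these genes overlapped between fat and spleen. The B cell, macrophage, endothelial, and T and NK cell marker sums were each higher in every spleen Treg library than in every fat Treg library. The Treg cell marker sum was lower in every spleen library. The part of these markers in these values was not tested. Wars (-0.12) and Gars (0.15) were not called. BAT against SAT Treg cells called no member and 0.0% of all genes, with 5 members and 1231 of all 13847 genes at an edgeR unadjusted p under 0.05. Yars had 40.7 and 50.1 CPM in BAT Treg cells, against 82.0, 71.4 and 50.2 CPM in SAT Treg cells (-0.58 ± 0.22), and Wars2 22.7 and 12.7 CPM in BAT Treg cells, against 10.6, 9.45 and 7.59 CPM in SAT Treg cells (0.94 ± 0.37), both at an edgeR adjusted p of 0.48. Wars (0.41), Gars (0.05) and Lars2 (-0.03) did not pass, and with 2 BAT libraries the precision is low.

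**Figure D5:**
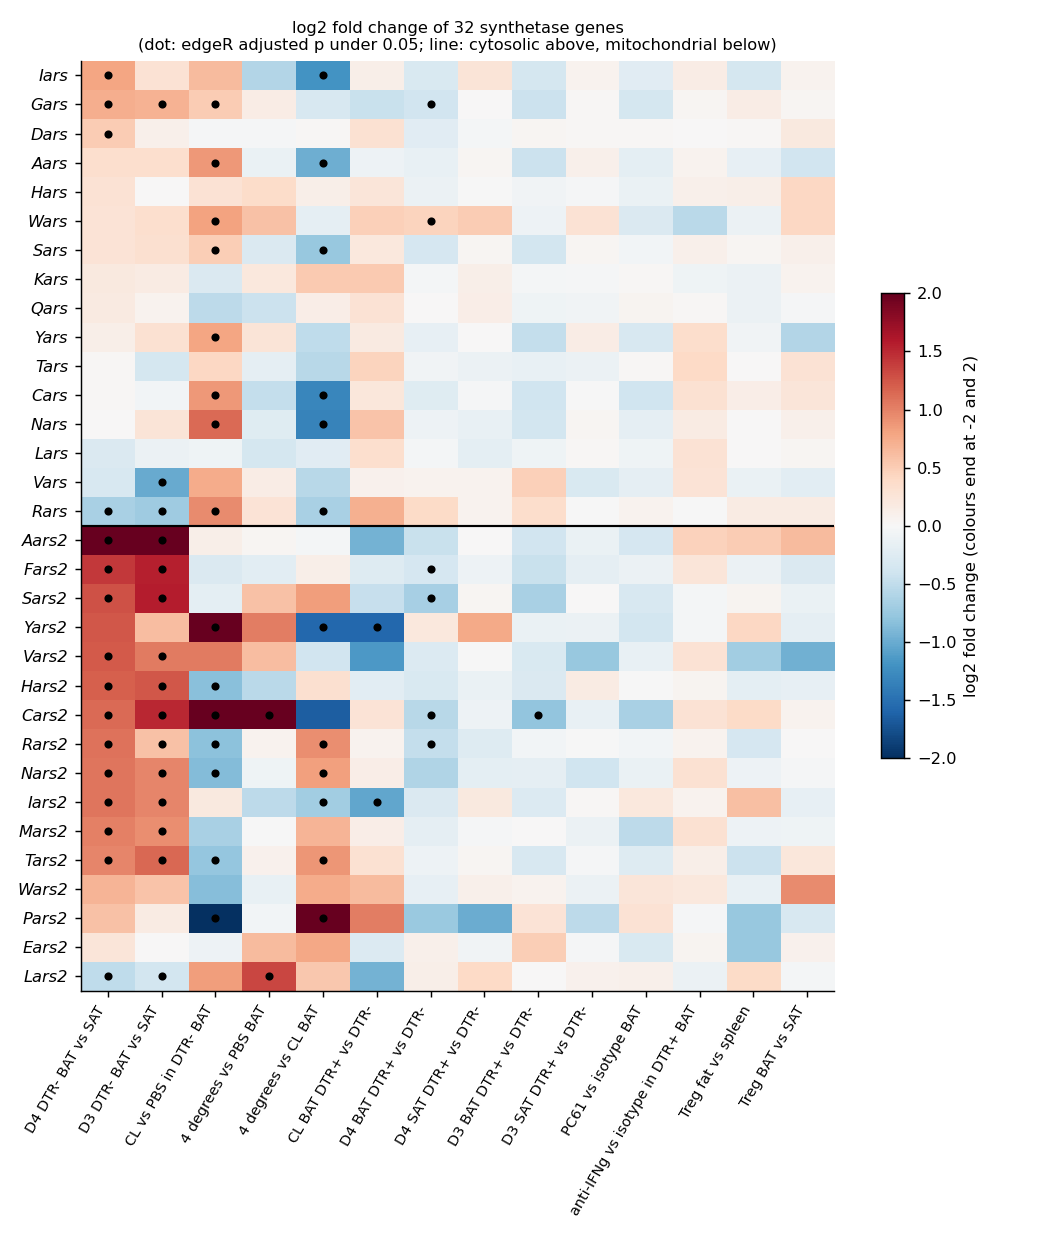
Log2 fold change of 32 members (rows, cytosolic above the line and mitochondrial below) in 14 comparisons (columns), on a colour scale that ends at ±2, with a dot where the edgeR adjusted p is under 0.05. The dots lie mostly in the mitochondrial rows of BAT against SAT and in the columns with CL.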

How the data were processed

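Whole BAT, whole SAT and sorted Treg cells were profiled by Smart-seq2 from 2 ng of RNA with oligo(dT) priming and Nextera XT libraries, per the labels' protocols. The authors deposited whole-number read counts per gene, and the submitters' processing notes name STAR 2.7.3a, featureCounts and mm10. Which annotation release was used, and whether counting used strand, is not given in the sources used here.

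Each comparison was fitted over all genes with edgeR 4.0.16 (filterByExpr, TMM factors, robust quasi-likelihood F test, Benjamini-Hochberg adjustment, threshold 0.05) in R 4.3.3 with limma 3.58.1. CPM values were scaled by TMM over the 52 tissue libraries and, apart, over the 8 Treg libraries, and exon lengths and positions came from GENCODE M21. Standard errors were derived from the F statistic. Alternatives were DESeq2 1.42.0, other size factors, no filter, a replicate block, other control or group sets, leaving out each library and, added after seeing the data, library totals in place of TMM. Promoters came from RefSeq (GRCm38.p6).

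The members, the gene lists and the rule for named genes were chosen with earlier results of these data known. The rule names members, gives those called in each comparison (the 2 with the smallest p where none is), follows Wars, Gars and Lars2 throughout and names up to 4 called genes of each other list. Neighbouring Ing1 and Naxd, Asns and Gm15564 were added for context. The values of 1 mitochondrial member, which stays in the counts, medians and sums, and 1 promoter motif are not reported here.

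On simulated counts, edgeR recovered 18% to 74% of genes changed by a log2 fold change of 1 and 78% to 98% of those changed by 2, depending on the comparison, and 4.82% to 13.2% of its calls were false. All 67 pairs of libraries within a group differed by more than sampling noise (chi-square divided by its degrees of freedom, 7.02 to 37.6, for genes of 20 or more counts), so none was counted as a copy.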

Additional observations from a re-analysis of the deposited data

Results flagged for a closer look

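In groups of 4 libraries, 5 of 132 sets of values, 1 per member and group, had a library that stood apart from the other 3 by more than Dixon's 95% limit. Chance alone flags about 1 set in 20. Cars2 in D4 DTR+ BAT was 41.0 CPM in the library numbered 4, against 34.8 to 35.8 CPM in the others. Mars2 in D4 DTR- BAT was 19.9 CPM in the library numbered 2, against 15.7 to 16.1 CPM. Nars2 in D4 DTR- BAT was 26.3 CPM in the library numbered 1, against 33.4 to 34.2 CPM. Tars in D4 DTR- SAT was 63.3 CPM in the library numbered 2, against 57.6 to 58.5 CPM. Vars2 in D4 DTR+ SAT was 11.0 CPM in the library numbered 2, against 6.95 to 7.17 CPM.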

How the results depend on the processing

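With DESeq2, Treg cells of fat against spleen had 1 member higher and 1 lower, D4 SAT 1 higher, D3 BAT 2 lower, CL DTR+ against DTR- 5 lower and 4 degrees against PBS 1 lower; Lars2 in D3 BAT was -0.01, as with RLE size factors. With no filter, the counts were 2 higher and 2 lower in Treg cells of fat against spleen, 10 lower in D4 BAT, 1 higher in D4 SAT, 4 lower in D3 BAT, 4 lower in CL DTR+ against DTR-, 1 lower each with PC61, with anti-IFNg and at 4 degrees against PBS, and 7 higher at 4 degrees against CL. With library totals in place of TMM, they were 1 lower in Treg cells of fat against spleen, 3 higher and 0 lower in D4 BAT, 2 higher and 0 lower in D3 BAT, 8 lower in D4 BAT against SAT, 8 higher and 8 lower in D3 BAT against SAT, and 8 higher at 4 degrees against CL. That scaling put the median of all genes at 0.13 for PC61 and 0.29 for the D4 difference between depots, and gave Wars 0.20 in the D4 difference between depots, 0.11 in D3 BAT, and -0.21 and -0.14 in D4 and D3 BAT against SAT, and Gars -0.02 with anti-IFNg. With D3 DTR- BAT as controls for 4 degrees, 1 member was higher and 7 lower, and Gars was -0.24. Calls lost with no filter (edgeR adjusted p) were Gars for CL against PBS (0.13), Cars2 at 4 degrees against PBS (0.19) and Rars at 4 degrees against CL (0.09). With only the 2 groups in the fit, Hars2 was not called for CL against PBS (edgeR adjusted p = 0.075).

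Same-numbered libraries did not deviate together (r from -0.27 to 0.19, with every pair over 0.1 in 0 comparisons). With so few libraries per group, this cannot decide whether the numbers pair animals. The replicate block moved the count at 4 degrees against PBS to 1 higher, and left every other count of members within 1.5 times. Lars2 then passed for CL against PBS (0.85, edgeR adjusted p = 0.022), CL DTR+ against DTR- (-0.95, 0.033) and 4 degrees against CL (0.58, 0.049). Calls lost with the block (edgeR adjusted p) were Sars2 in D4 BAT (0.058), Lars2 in D3 BAT against SAT (0.11) and Rars2 for CL against PBS (0.057). Cars2 at 4 degrees against PBS (0.053), and Rars2 (0.054) and Rars (0.053) at 4 degrees against CL, were lost too. No paired analysis was possible for anti-IFNg because its groups share too few numbers.

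Leaving out 1 library gave 0 to 2 higher and 0 to 1 lower in Treg cells of fat against spleen, 0 to 1 higher and 3 to 9 lower in D4 BAT, 0 to 1 lower in D3 BAT, 2 to 4 lower for CL against PBS, 1 to 4 lower for CL DTR+ against DTR-, and 0 to 1 higher at 4 degrees against PBS and 2 to 5 against CL; leaving out number 3 of both D4 SAT groups gave 1 higher. Log2 fold changes that crossed 0 were Lars2 in BAT against SAT Treg cells (-0.21 to 0.11), in D3 BAT (-0.04 to 0.06), with PC61 (-0.05 to 0.37) and with anti-IFNg (-0.33 to 0.09), Gars in D4 SAT (-0.06 to 0.11), in D3 SAT (-0.07 to 0.10), in D4 minus D3 (-0.08 to 0.14) and with anti-IFNg (-0.02 to 0.08), and Wars in the D4 difference between depots (-0.15 to 0.05) and in D3 BAT (-0.20 to 0.06). The cause was not tested. Members at a few counts per library, Pars2 and Yars2 above all, are the least precise.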
